A study of Mus musculus with 38 samples.

Results

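Microglia and macrophages were followed through 8 genes that these cells are known for: C1qa, C1qb, Tyrobp, Csf1r, Ptprc, Ctss, Irf8 and Aif1. Each was read from the probe set mapped to its symbol, and all 8 were present among the 15644 genes measured. The measurements came from 38 mouse arrays of brain cortex and of glioma, made either from RNA attached to ribosomes of 1 cell type (bound RNA) or from total RNA of the tissue. Bound RNA was obtained by translating ribosome affinity purification, which pulls down the tagged ribosomes of a chosen cell type out of whole tissue. None of the tagged populations was microglia or macrophages.

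The cortex groups came from dissected cortex of adult mice without tumours. Pools of at least 2 mice are stated for the bound RNA, and no pooling is stated for cortex total RNA. Bound RNA was made with n = 3 arrays each from neurons (titles naming Snap25), mature oligodendrocytes (Cnp1), astrocytes (Aldh1L1), oligodendrocyte progenitor cells (Pdgfra) and oligodendroglia (Olig2). Total RNA of cortex had n = 5 arrays. Tumours were dissected from mice after tumour induction, in 3 models that the submitters call Pdgf, Pdgf Cre and Recruited. Each model gave n = 3 arrays of RNA bound in Olig2 cells and n = 3 of total tumour RNA. All mice were of a C57BL/6J, FVB and Swiss-Webster mixture. Neither the construct of the tagged lines, the agents that induced the tumours nor the ages and pooling of the tumour mice is stated in the labels. Array titles call the total RNA UB and the labels do not explain the code. It may stand for an unbound fraction, and folds and shares against total RNA would then be against that fraction.

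Microglia are the resident macrophages of the brain, and macrophages derived from blood monocytes join them in tumours. C1qa and C1qb encode chains of C1q, the recognition molecule of the classical complement pathway, which brain microglia are a main source of. Tyrobp encodes the adaptor through which receptors such as Trem2 signal, and Csf1r the receptor for the growth factors Csf1 and Il34 that these cells need to survive. Irf8 is a transcription factor of the myeloid lineage that interferon gamma also induces. Ptprc (CD45) is a phosphatase on the surface of blood-derived cells, Ctss a lysosomal protease that trims the invariant chain during antigen presentation, and Aif1 (Iba1) an actin-binding protein widely used to stain microglia.

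Levels are log2 signals brought to a common distribution over the 38 arrays, and a level under log2 50 (5.64) is called dim. In all, 9799 genes were above that limit in at least 3 arrays and were tested with limma, the 8 genes among them. A gene passed where the Benjamini-Hochberg adjusted p was under 0.05 and the difference at least 2-fold. Where 1 side of a comparison was dim on some or all of its arrays, dim arrays of both sides were raised to the limit. The fold is a lower bound ("at least") if no array of the brighter side was dim. Raising dim arrays of the brighter side makes the fold larger, so that it is no bound and is called a fold at the limit. For list genes, "at least" is printed without regard to dim arrays on the brighter side. Ptprc, Aif1 and C1qa entered the test mainly through tumour total RNA and Irf8 through both tumour RNAs, so that their differences from dim groups were bound to be large. Many dim values, and some above the limit such as Ctss in neurons, were identical over the arrays of a group. Spreads there are too narrow and p-values too small. The labels do not say that arrays of a group came from separate animals, and p-values then measure the spread between these arrays, which may be partly technical.

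The named populations were checked through their own genes. Against cortex total RNA, bound RNA held Cnp at 31.9-fold in mature oligodendrocytes, Aldh1l1 at 9.16-fold in astrocytes, Pdgfra at least 26.0-fold in progenitors and Olig2 at 78.2-fold in cortical Olig2 cells, all passing. Snap25 in neurons was 1.18-fold higher and did not pass. Recruited tumours varied more than other groups, with a median SD per gene of 0.45 in total RNA against 0.16 in cortex total RNA. Cortex and tumours were 2 separate datasets, so that tissue and dataset cannot be told apart in any comparison between them.

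**Figure D1:**
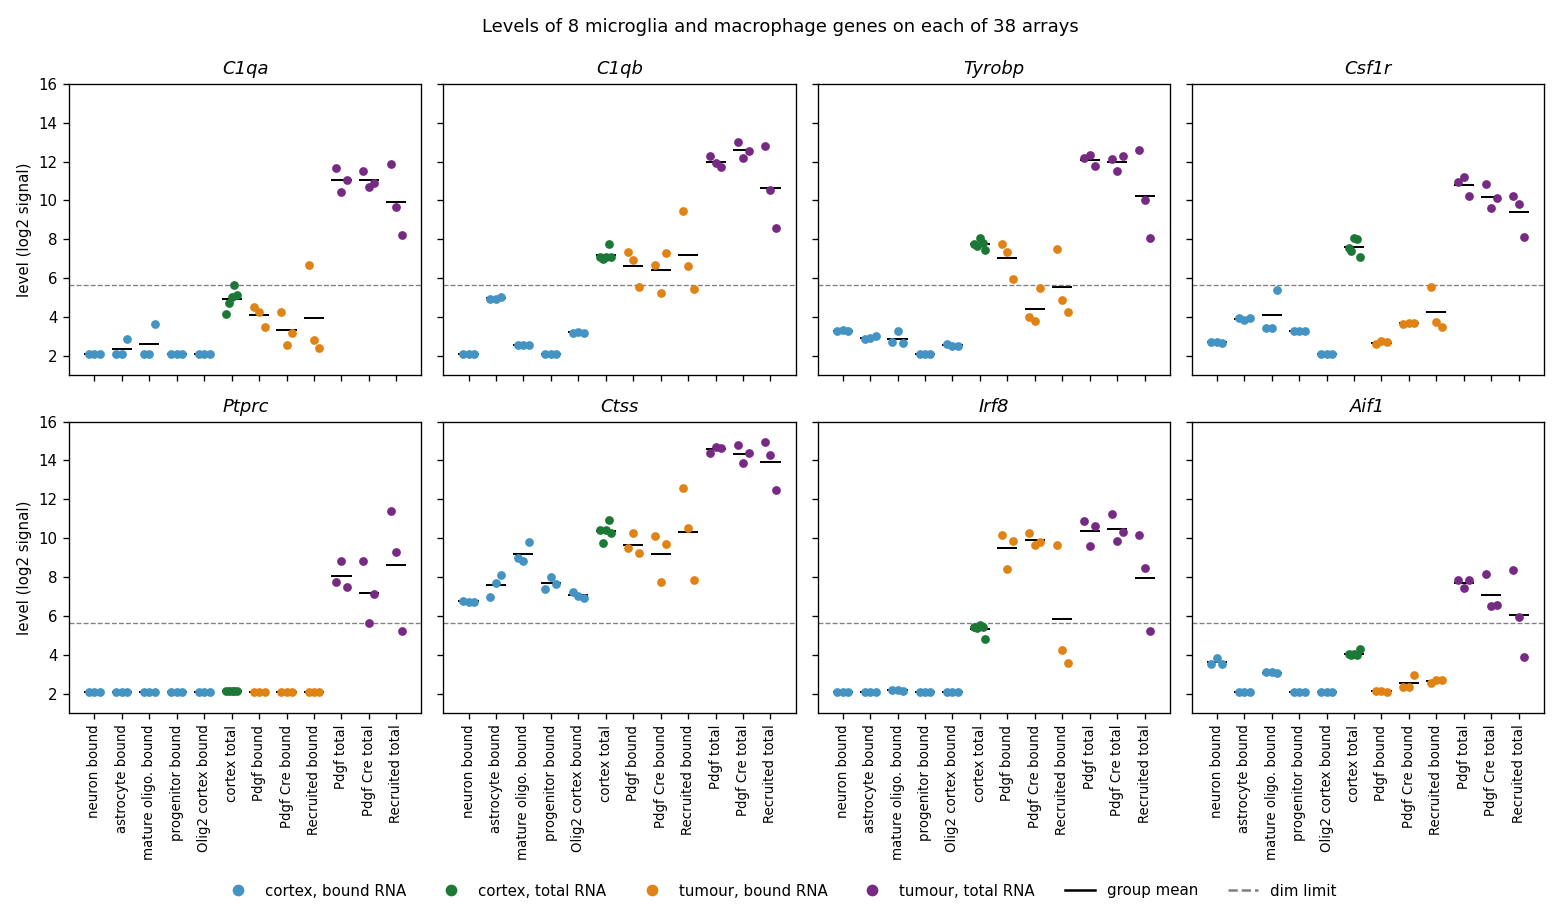
Level (log2 signal) of each of the 8 genes on every array, 12 groups along the horizontal axis; points are arrays, bars group means and the dashed line the dim limit. Tumour total RNA (purple) holds the highest mean of every gene, and only Irf8 has tumour bound RNA (orange) close to tumour total RNA in the Pdgf and Pdgf Cre models.

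In cortex without tumour, 4 of the 8 genes were above the limit on every total RNA array, and in bound RNA Ctss alone was. Ctss read 10.41, 9.73, 10.44, 10.93 and 10.29 in cortex total RNA. Tyrobp lay at 7.77, 7.66, 8.08, 7.82 and 7.43 on the same arrays. Csf1r (7.10 to 8.09) and C1qb (6.96 to 7.76) were also above the limit on all 5 arrays. These 4 genes thus gave a measurable cortical level. Irf8 (4.83 to 5.52), Aif1 (3.98 to 4.29) and Ptprc (2.12 to 2.14) were dim on every cortex array, and C1qa (4.17 to 5.66) on all but the array of replicate 4.

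Bound RNA of the 5 cortical populations held less of these genes than cortex total RNA. Lower levels passed for 6 of 8 genes in neurons (14.8% of all tested genes were lower), for 5 in mature oligodendrocytes (27.7%), and for 7 each in progenitors (23.8%), cortical Olig2 cells (26.6%) and astrocytes (29.8%). These 5 comparisons share the cortex total RNA arrays. C1qb, Tyrobp and Csf1r were dim in all 15 cortical bound arrays, giving bounds of at least 2.93-fold, 4.31-fold and 3.93-fold in each population. C1qa, Irf8, Ptprc and Aif1 were dim on both sides, and no fold is given for them. Adjusted p-values are from limma throughout.

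Ctss was above the limit on every array of cortical bound RNA. It read 6.75, 6.74 and 6.74 in neurons, 7.25, 7.04 and 6.93 in cortical Olig2 cells and 6.95, 7.69 and 8.11 in astrocytes. The deposited neuron value was 7.09 on all 3 arrays, so the neuron levels are not 3 independent readings. Progenitors gave 7.38, 8.01 and 7.62, and mature oligodendrocytes 8.98, 8.82 and 9.81. The mature oligodendrocyte arrays were the highest of the cortical bound RNA, above every array of the other 4 populations. Relative to cortex total RNA, Ctss was lower by 12.3-fold in neurons, 9.73-fold in cortical Olig2 cells, 6.84-fold in astrocytes and 6.45-fold in progenitors, all passing. In mature oligodendrocytes it was 2.23-fold lower with overlapping arrays and did not pass (-1.16 ± 0.63 log2, SE, adjusted p = 0.09998, limma). It passed there when only the 2 groups compared entered the fit (adjusted p = 0.0107) and with array weights (-1.47, adjusted p = 2.20e-06, limma).

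Tumour total RNA held more of all 8 genes than cortex total RNA in each of the 3 models. All 8 passed as higher in Pdgf tumours, in Pdgf Cre tumours and in Recruited tumours, where 25%, 22.8% and 23.7% of all tested genes were higher. The 4 genes with a measured cortical level, C1qb, Tyrobp, Csf1r and Ctss, were among them in each model. The median of the 8 differences was 4.57, 4.65 and 3.04 (log2), beside 0.00, -0.05 and -0.08 over all tested genes. Which way all genes moved depends on the scale. Of the genes that passed, 49.5%, 47.7% and 47.3% were higher, and without a common scale 66.0% and 69.9% in Pdgf and Recruited tumours. With medians equalized it was 32.9%, 29.5% and 31.2%. In bulk RNA, more cells of a type and more RNA per cell cannot be told apart.

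Among the complement genes, C1qa read 11.69, 10.43 and 11.06 in Pdgf total RNA, 11.54, 10.71 and 10.92 in Pdgf Cre and 11.87, 9.64 and 8.21 in Recruited. No tumour array overlapped the cortex arrays. C1qa was at least 42.6-fold, 42.4-fold and 19.1-fold higher than in cortex. C1qb read 12.31, 11.93 and 11.72 in Pdgf, 13.03, 12.19 and 12.57 in Pdgf Cre and 12.82, 10.56 and 8.57 in Recruited, again with every tumour array above every cortex array. Being measured on both sides, it rose 27.7-fold (4.79 ± 0.65, adjusted p = 1.68e-07), 42.2-fold (5.40 ± 0.65, 2.23e-08) and 10.9-fold (3.45 ± 0.65, 2.87e-05; log2 difference ± SE, limma).

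The signalling genes rose as well. Tyrobp read 12.20, 12.33 and 11.78 in Pdgf tumours, 12.15, 11.52 and 12.29 in Pdgf Cre tumours and 12.60, 10.01 and 8.08 in Recruited tumours. The Recruited tumour of replicate 3 lay at the height of the highest cortex array, whereas all other tumours were above cortex. The folds were 20.4, 18.8 and 5.58. Csf1r read 10.94, 11.20 and 10.21, then 10.83, 9.60 and 10.13, then 10.21, 9.83 and 8.14 in the same order of models. It had the smallest rise of the 4 genes measured on both sides, 8.97-fold, 5.93-fold and 3.42-fold, with no overlap with cortex.

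Ctss read 14.41, 14.72 and 14.65 in Pdgf, 14.81, 13.86 and 14.38 in Pdgf Cre and 14.93, 14.30 and 12.48 in Recruited. It was 18.8-fold, 15.9-fold and 11.7-fold higher than in cortex, with no overlap. Ptprc went from the floor of the arrays to 7.76, 8.85 and 7.48 in Pdgf, 8.81, 5.64 and 7.14 in Pdgf Cre and 11.39, 9.27 and 5.22 in Recruited. The last of these arrays was still dim, and that of Pdgf Cre tumour 2 lay just under the limit. Ptprc was at least 5.23-fold higher in Pdgf tumours. In Pdgf Cre and Recruited tumours, with 1 array dim in each, its folds at the limit were 2.94 and 8.72. Aif1 read 7.83, 7.44 and 7.85, then 8.15, 6.49 and 6.56, then 8.34, 5.94 and 3.89. It was at least 4.18-fold and 2.68-fold higher in Pdgf and Pdgf Cre tumours. In Recruited tumours, with 1 array dim, its fold at the limit was 2.00. The lowest Recruited array of Aif1 lay below all 5 cortex arrays.

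Irf8 read 10.88, 9.62 and 10.64 in Pdgf total RNA, 11.23, 9.83 and 10.32 in Pdgf Cre and 10.14, 8.44 and 5.20 in Recruited. The first 6 tumours and Recruited tumours 1 and 2 were all above cortex, and Recruited tumour 3 lay within the cortical range. Irf8 was at least 26.6-fold and 28.2-fold higher in Pdgf and Pdgf Cre tumours, and 5.40-fold at the limit in Recruited tumours (adjusted p = 5.85e-06, 5.03e-06 and 0.00761, limma). The array of Recruited tumour 3 was dim. Without the total RNA array of Recruited tumour 1, Irf8 (1.52, adjusted p = 0.138) and Aif1 (0.86, under 2-fold) no longer passed in the Recruited model and 6 of 8 genes did. Aif1 also missed the threshold there when only the 2 groups compared entered the fit (adjusted p = 0.0747).

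**Figure D2:**
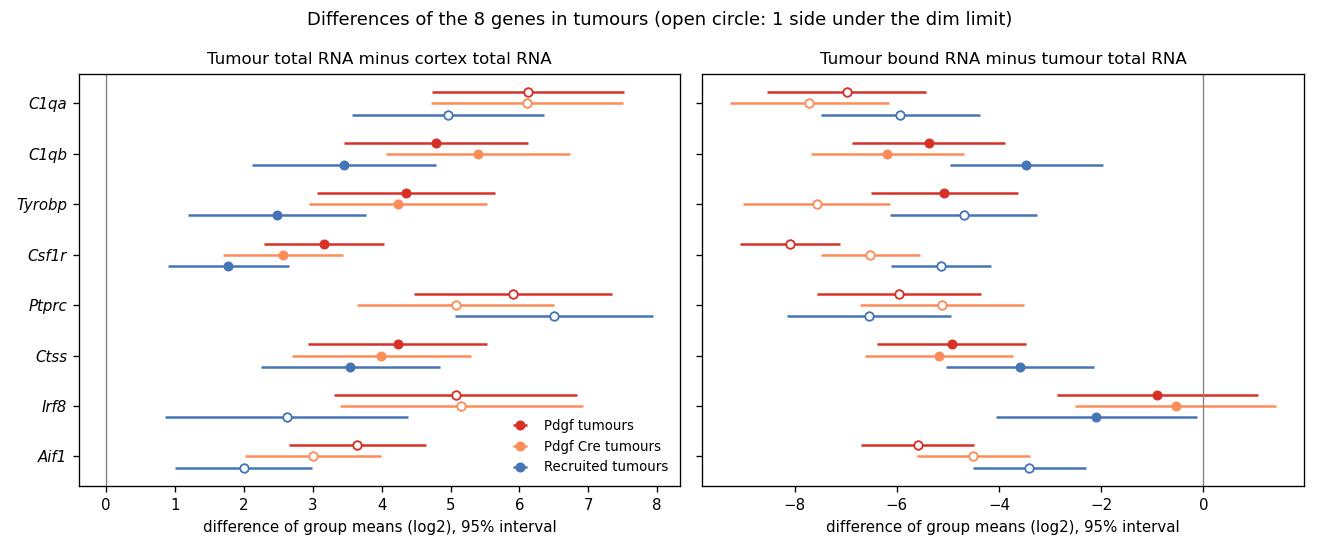
Difference of group means (log2, with the 95% interval of the limma fit, which does not pair arrays) for each gene and tumour model, tumour total minus cortex total on the left and tumour bound minus tumour total on the right. All 24 intervals on the left lie above 0, and on the right the intervals of Irf8 in Pdgf and Pdgf Cre tumours are the ones that include 0.

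The 3 models were then set against each other in total RNA. Pdgf Cre and Pdgf tumours differed in none of the 8 genes past the threshold by limma (0 also had an unadjusted p under 0.05; 21.1% of all tested genes passed). The differences ran from -0.83 (Ptprc) to 0.61 (C1qb), and their 95% intervals reached as far as -2.44 and 2.11, so that changes of up to several fold are not excluded by these arrays. With array weights, Aif1 passed as lower in Pdgf Cre tumours (-1.19, adjusted p = 2.60e-07).

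Recruited tumours held less of some genes, with great spread. Against Pdgf tumours 4 of 8 passed as lower (17.8% of all tested genes were lower): Irf8 by at least 4.93-fold, Tyrobp by 3.66-fold, Csf1r by 2.62-fold and Aif1 by at least 2.10-fold. Against Pdgf Cre tumours 3 passed as lower (18.7%): Irf8 by at least 5.23-fold, C1qb by 3.86-fold and Tyrobp by 3.38-fold. Irf8 and Aif1 were measured on 2 of the 3 Recruited arrays, hence the bounds. Arrays of the 2 models overlapped for each of these genes. None of the 4 and none of the 3 passed when only the groups compared entered the fit. Against Pdgf, Aif1 alone stayed lower on the deposited scale and with medians equalized, and 2 of the 4 did without Pdgf total array 1 or 2. Against Pdgf Cre none of the 3 stayed lower on the deposited scale or without Pdgf Cre total array 1. C1qb alone did with medians equalized, and Irf8 alone without Recruited total array 2. Ptprc had the other sign, at 0.60 ± 0.78 and 1.43 ± 0.78 above Pdgf and Pdgf Cre (log2, SE), and did not pass. It passed as higher than in Pdgf Cre tumours on the deposited scale (1.72, adjusted p = 0.0294), without Pdgf Cre total array 1 (2.24, 0.0218) and with array weights (2.42, 5.03e-05), and with array weights also against Pdgf (1.99, 0.000471, limma).

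The Recruited tumours themselves differed from each other in the same order for all 8 genes. Tumour 1 was highest, tumour 2 intermediate and tumour 3 lowest in total RNA, from 11.39 to 5.22 for Ptprc, from 12.82 to 8.57 for C1qb and from 10.14 to 5.20 for Irf8. Bound RNA of tumour 1 was also the highest of its model for 6 of the 8 genes, while Ptprc was at the floor in all 3 and Aif1 dim. Markers of other cells spread as well. The summed signal of the 11 pericyte and fibroblast markers ran from 11.69 to 15.47 (log2) over the 3 Recruited total RNA arrays, against 8.96 to 9.59 in cortex, and their part in the result was not tested. Leaving out tumour 1 raised the genes passing as lower to 6 against Pdgf and to 6 against Pdgf Cre. Without tumour 3 none passed as lower in either contrast. The 1 gene called was then Ptprc, higher in Recruited tumours by 2.30 against Pdgf (adjusted p = 0.000320, limma) and by 3.13 against Pdgf Cre (adjusted p = 5.66e-06).

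Inside the tumours, bound RNA of Olig2 cells held far less of 7 of the 8 genes than total RNA of the same tumours, and Irf8 was the exception. Lower levels passed for 7 genes in Pdgf tumours (15.3% of all tested genes were lower), 7 in Pdgf Cre tumours (18.1%) and 7 in Recruited tumours (20.2%). The median of the 8 differences was -5.49, -5.68 and -4.14, beside 0.05, 0.13 and 0.13 over all tested genes. Of all genes that passed, 52.4%, 52.5% and 54.4% were higher in bound RNA. That split was 17.9%, 23.3% and 31.6% on the deposited scale, 83.4%, 80.0% and 76.5% with medians equalized and 26.1%, 28.0% and 26.3% with spike-ins equalized. On each of these scales 7 genes passed in Pdgf and in Pdgf Cre tumours, and 7 or 8 in Recruited tumours.

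C1qa was dim in 8 of 9 bound arrays, and read 6.67 in Recruited tumour 1. It was at least 42.7-fold, 42.6-fold and 15.1-fold lower than in total RNA. Csf1r was dim in all 9 bound arrays (2.59 to 5.53), at least 35.3-fold, 23.3-fold and 13.5-fold lower. Ptprc stayed at the floor of 2.08 in every bound array, including Recruited tumour 1, where total RNA had 11.39. Aif1 was at 2.08 to 2.97. Apart from C1qa in Recruited tumour 1, where the bound level was 2.74% of total, these 4 genes therefore gave bounds alone, and for Ptprc and Aif1 the bounds were small because their total RNA was not bright.

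C1qb, Tyrobp and Ctss could still be read in bound RNA. C1qb was 7.33, 6.94 and 5.57 in Pdgf tumours, 6.70, 5.24 and 7.30 in Pdgf Cre tumours and 9.45, 6.63 and 5.46 in Recruited tumours. Where both sides were measured, its bound level was 1.24% to 3.17% of the total level of the same tumour in the Pdgf and Pdgf Cre models and 9.69% and 6.58% in Recruited tumours 1 and 2. The share was thus higher in both measured Recruited tumours than in the 4 others measured. Tyrobp was 7.76, 7.35 and 5.97 in Pdgf tumours, dim at 4.01, 3.77 and 5.48 in Pdgf Cre tumours, and 7.51, 4.85 and 4.26 in Recruited tumours. Its measured shares were 1.79% to 4.62%.

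Ctss was above the limit in all 9 bound arrays, at 9.50, 10.25 and 9.24 in Pdgf, 10.11, 7.72 and 9.71 in Pdgf Cre and 12.58, 10.50 and 7.85 in Recruited. Per tumour the bound level was 3.33%, 4.53% and 2.36% of total, then 3.84%, 1.42% and 3.92%, then 19.7%, 7.18% and 4.05%. The share in Recruited tumour 1 stood apart from the other 8. Ctss was 30.4-fold, 36.0-fold and 12.05-fold lower in bound RNA (-4.93, -5.17 and -3.59 ± 0.71 log2, adjusted p = 8.76e-07, 3.31e-07 and 6.27e-05, limma). In the Recruited model C1qb (adjusted p = 0.128), Tyrobp (0.0555), Ctss (0.0942) and Aif1 (0.0675) did not pass when only the 2 groups compared entered the fit, leaving 3 of 8.

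Irf8 behaved differently from the other 7 in the Pdgf and Pdgf Cre models. Its bound levels were 10.18, 8.40 and 9.86 in Pdgf tumours and 10.29, 9.67 and 9.80 in Pdgf Cre tumours, overlapping total RNA in both models. Bound RNA held 61.8%, 42.8% and 58.5% of the total level of the same Pdgf tumour and 51.9%, 89.4% and 70.2% in Pdgf Cre tumours. Irf8 was lower in bound RNA in each of the 9 tumours, as the other 7 genes were. Without pairing, the difference did not pass in either model (-0.90 ± 0.96, adjusted p = 0.462, 95% interval -2.87 to 1.08, and -0.54 ± 0.96, adjusted p = 0.654, -2.51 to 1.43, limma). With the replicate block, which compares bound and total RNA within each tumour, the adjusted p was 0.0313 in Pdgf tumours, with a difference under 2-fold that still did not pass, and 0.181 in Pdgf Cre tumours. With array weights it passed as lower in Pdgf tumours (-1.39, adjusted p = 0.000887).

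In Recruited tumours bound Irf8 was split, at 9.66 in tumour 1 and dim at 4.26 and 3.59 in tumours 2 and 3. Tumour 1 held 71.5% of its total level, like the Pdgf tumours, while in tumour 2 the bound level was at most 14.4% of total, and tumour 3 was dim on both sides. The mean difference was -2.09 ± 0.96 (adjusted p = 0.0563). The replicate block gave the same difference with an adjusted p of 1.37e-05, and Irf8 then passed. It also passed on the deposited scale (-2.77, adjusted p = 0.0119) and without Recruited tumour 1 (-2.90, adjusted p = 0.000177).

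Irf8 was set beside Ctss, the gene read in all 9 bound arrays, as a description chosen after the values were seen and therefore without a test. In the 7 tumours where both genes were measured in both RNAs, the change from total to bound RNA was smaller for Irf8, by 1.86 (log2) in Recruited tumour 1 to 5.97 in Pdgf Cre tumour 2, with a median of 4.16. In each of these 7 tumours Irf8 also kept the highest share of its total level among the 8 genes, upper bounds of dim genes included; Ptprc, dim on both sides in Pdgf Cre tumour 2, gave no share there. In Recruited tumours 2 and 3 bound Irf8 was dim and no such order is given.

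**Figure D3:**
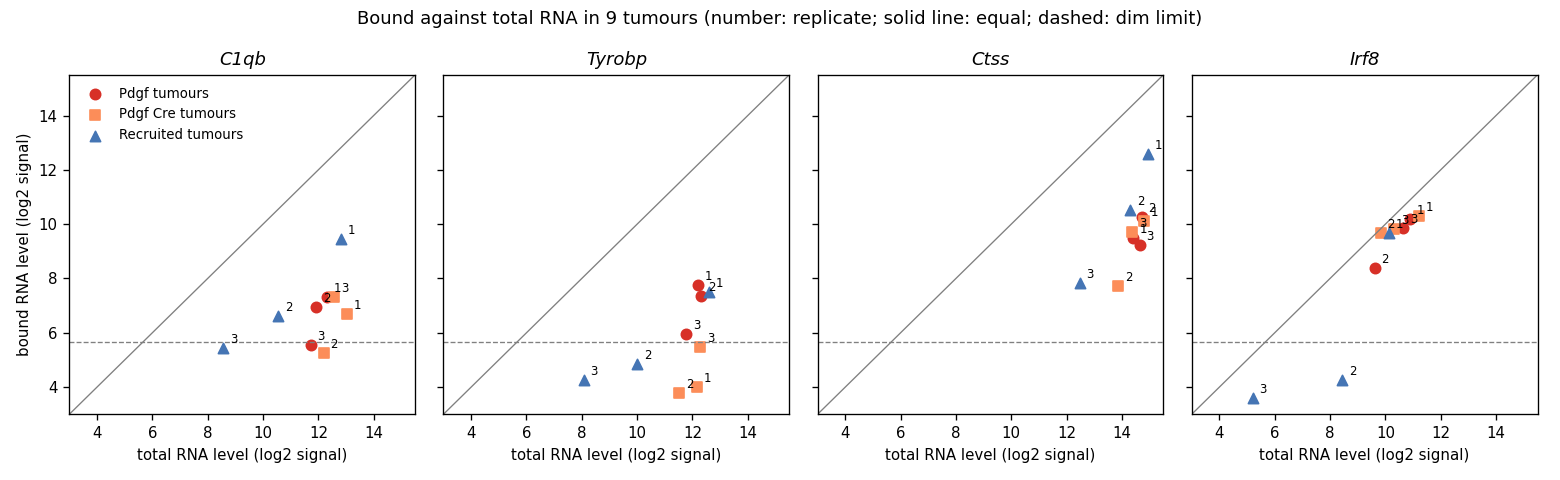
Bound against total level (log2 signal) in each of 9 tumours for C1qb, Tyrobp, Ctss and Irf8; symbols are tumour models, numbers replicates, the solid line equal levels and the dashed line the dim limit. Irf8 of 7 tumours lies close under the line of equal levels, while the other genes lie well below it.

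Across tumours, the level in bound RNA was compared with that in total RNA for the 4 genes read in bound RNA. For C1qb (r = 0.50, p = 0.170, rho = 0.62, p = 0.0857), Tyrobp (r = 0.52, p = 0.150, rho = 0.67, p = 0.0589) and Ctss (r = 0.72, p = 0.0407, rho = 0.65, p = 0.0666) over 9 tumours none passed once adjusted over the 4 relations (Pearson's adjusted p = 0.170, 0.170 and 0.0815, Spearman's 0.0857 each, two-sided exact permutation tests). Leaving out the 2 tumours farthest from the median total level gave r = 0.57, 0.65 and 0.55. Bound Irf8 fell into separate clusters, so no pooled value is given. Within the 7 tumours above the limit r was 0.84 (exact permutation p = 0.00536, adjusted 0.0214) and rho 0.96 (p = 0.00278, adjusted 0.0111), and r was 0.90 without the 2 farthest. These 7 were chosen by the bound levels themselves after they were seen, while C1qb and Tyrobp kept all 9 tumours, dim arrays included. The Irf8 values are therefore a description and cannot be set against those of the other genes. Bound and total RNA of a tumour are taken to share the tissue piece, the models are pooled in these values, and 3 tumours per model are too few for a value within a model.

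The promoter of Irf8 is shown because its pattern departs from that of the other genes, and those of C1qb and Ctss because these are 2 genes read in bound RNA that follow the shared pattern. The sequences are the 250 bases before the start site in RefSeq (GRCm38.p6), 5′ to 3′ on the gene's strand, and capitals mark the motif TTCNNNGAA, the interferon gamma activation site, searched after the levels were seen.
Irf8, chr8:120736108-120736357, plus strand: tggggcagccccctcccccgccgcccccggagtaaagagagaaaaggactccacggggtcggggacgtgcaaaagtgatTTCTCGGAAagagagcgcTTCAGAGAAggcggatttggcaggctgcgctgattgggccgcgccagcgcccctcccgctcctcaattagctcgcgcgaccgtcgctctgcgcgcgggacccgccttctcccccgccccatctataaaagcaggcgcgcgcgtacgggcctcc
C1qb, chr4:136886201-136886450, minus strand: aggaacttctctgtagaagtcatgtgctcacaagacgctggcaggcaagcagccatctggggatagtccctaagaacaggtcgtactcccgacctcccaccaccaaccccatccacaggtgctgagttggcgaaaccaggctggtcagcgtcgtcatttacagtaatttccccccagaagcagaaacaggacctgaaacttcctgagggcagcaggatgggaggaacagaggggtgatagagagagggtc
Ctss, chr3:95526536-95526785, plus strand: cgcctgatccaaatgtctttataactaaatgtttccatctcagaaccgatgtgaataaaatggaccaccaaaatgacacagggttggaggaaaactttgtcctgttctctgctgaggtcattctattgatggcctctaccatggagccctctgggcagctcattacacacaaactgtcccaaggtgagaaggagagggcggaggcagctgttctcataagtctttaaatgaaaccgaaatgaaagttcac
The Irf8 window shown holds 2 matches that do not overlap, starting 171 and 153 bases before the start site. The window of another Irf8 start site, chr8:120738389-120738638, holds none and is not shown. Of all 32851 promoter windows of this length, 7.02% hold at least 1 match. TTCNNNGAA reads the same on both strands. The motif GAGGAAGT of PU.1 and the composite motif of ETS and IRF factors were also searched on both strands and had no match in the 7 windows of the 5 genes in the table (Irf8, C1qb, Ctss, Ptprc and Aif1); 2.44% and 2.30% of all windows hold them. No other motif was searched, so an unmarked window, that of Ctss included, can still hold another interferon-response motif. A match describes letters and is not a site of binding.

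Bound RNA of tumours was then compared with bound RNA of cortical Olig2 cells, the same tagged population without a tumour. Higher levels passed for 5 of 8 genes in Pdgf tumours (16% of all tested genes were higher), 5 in Pdgf Cre tumours (17.7%) and 6 in Recruited tumours (12.9%), and none was lower. These 3 comparisons share the cortical Olig2 arrays. Both sides were dim for 4, 5 and 5 of the 8 genes, so that several of these calls concern levels that are not measurable. Irf8, C1qb and Ctss were measured in tumours of each model.

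Irf8 was at the floor of 2.08 in all 3 cortical Olig2 arrays and at least 14.3-fold higher in Pdgf and 19.4-fold in Pdgf Cre bound RNA. In Recruited bound RNA, where 2 of 3 arrays were dim, its fold at the limit was 2.53. Ctss, the gene measured on both sides, was 6.02-fold, 4.31-fold and 9.42-fold higher with no overlap (adjusted p = 0.00283, 0.0121 and 0.000376, limma). C1qb had folds at the limit of 1.99, 1.87 and 3.03, with 1 tumour array dim in each model. Tyrobp was at least 2.61-fold higher in Pdgf tumours. Within the Recruited model 2 of 6 calls were left when only the groups compared entered the fit. Ctss (adjusted p = 0.0950) and Irf8 (0.146) were among the 4 lost. In Pdgf Cre tumours 3 of 5 were left without tumour 3, Ctss (adjusted p = 0.0531) and Tyrobp (0.143) being lost.

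Among the models, bound RNA differed in 1 or 2 of these 8 genes, counts that lie near the shares of all tested genes. Tyrobp was at least 2.61-fold lower in Pdgf Cre than in Pdgf tumours without overlap (adjusted p = 0.00412, limma), 1 of 8 genes (8.87% of all tested genes were lower). Against Recruited tumours 2 of 8 passed relative to Pdgf (25.8% passed) and 1, lower, relative to Pdgf Cre (17% were lower). Irf8 was at least 5.65-fold lower in Recruited than in Pdgf tumours, with 1 of the 3 Recruited arrays above the limit. Arrays overlapped, since tumour 1 reached the Pdgf levels. Against Pdgf Cre it was at least 7.67-fold lower, with tumour 1 just under the lowest Pdgf Cre array (9.66 and 9.67). Both Irf8 calls were lost when only the groups compared entered the fit (adjusted p = 0.179 and 0.109). Csf1r was the other call, with both sides dim.

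A direct test asked whether the loss from total to bound RNA differed between the tumours (mean of 3 models) and cortical Olig2 cells. It was larger in tumours for 3 of 8 genes (22.1% of all tested genes were lower): Ptprc by 5.83 ± 0.83, C1qa by 4.01 ± 0.81 and Aif1 by 2.52 ± 0.58 (log2, SE). These 3 were dim in both cortex groups, so the cortical loss could not be read. Among the genes measured in cortex total RNA none passed, with differences of -1.28 ± 0.76 for Ctss (adjusted p = 0.139), -1.08 ± 0.51 for Csf1r (0.0642), -1.02 ± 0.78 for C1qb (0.255) and -0.57 ± 0.75 for Tyrobp (0.518). Irf8 had the opposite sign, 2.05 ± 1.03 (0.0810), but it too was dim on every array of both cortex groups, so that this sign rests on levels that could not be read. Csf1r passed on the deposited scale (adjusted p = 0.0136) and Irf8 with medians equalized (0.0171). With the replicate block 7 of 8 passed, adding C1qb (adjusted p = 0.000925), Csf1r (0.0195), Ctss (0.00586) and Irf8 (4.20e-05), the last in the opposite direction. Without Recruited tumour 1 there were 6.

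Other genes of the same cells were described from lists, some of which hold members of the 8. Many list genes were dim in cortex and entered the test through tumour arrays, which nearly fixes their direction against cortex. Beside the counts of rises below, 25%, 22.8% and 23.7% of all tested genes were higher in the 3 models. Of 11 complement genes measured, 5 could be tested and were higher in each model, but C1qb alone had a cortex mean above the limit. C1qc, the third C1q chain, rose at least 38.5-fold, 10.6-fold and 13.9-fold. Of 18 tested lysosomal and endosomal genes, Ctss included, 15, 14 and 16 rose and none fell. Of the 14 among them with a cortex mean above the limit, 11, 10 and 12 rose. Ctsc, a protease that activates other proteases, rose 50.8-fold, 60.2-fold and 65.8-fold, and Lyz2 (lysozyme) at least 18.3-fold, 9.09-fold and 10.9-fold. Of 11 Fc and pattern recognition receptors 9 rose in each model, led by Ly86, the partner of Cd180, at least 86.1-fold, 93.2-fold and 34.8-fold. Of 10 leukocyte surface and cytoskeleton genes 8 rose and 1 fell in each model. Of 6 chemokines and cytokines 6, 5 and 3 rose. The last 3 lists held 2, 3 and 1 genes with a cortex mean above the limit, of which 2, 1 and 1 rose in Pdgf tumours. In Pdgf Cre and in Recruited tumours 2, 1 and 0 of them rose.

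Most tested genes of the list of resident microglia and of the list of blood-derived macrophages rose in tumour total RNA. Over all tested genes the shares that rose were 25%, 22.8% and 23.7%. Of 10 tested resident microglia genes 9, 8 and 8 rose, with Tmem119 at least 6.55-fold, 2.60-fold and 7.49-fold and the nucleotide receptor P2ry6 at least 5.26-fold, 2.73-fold and 2.30-fold. The engulfment receptor gene Mertk fell, by at least 2.20-fold, 2.15-fold and 2.20-fold. Of the 4 resident genes with a cortex mean above the limit 3 rose and 1 fell in each model. Of 8 tested monocyte and macrophage genes, all dim in cortex, 7 rose in each model, with the lectin Lgals3 at least 11.7-fold, 21.3-fold and 2.82-fold and the matrix protein Tgfbi at least 6.78-fold, 3.79-fold and 24.7-fold. Several well-known microglia genes could not be tested. P2ry12 reached at most 6.62 and Cx3cr1 5.82 on any array, Trem2 2.65 and the PU.1 gene Spi1 2.90. The same held for genes of the monocyte list, where Ccr2 and Itga4 reached at most 2.08 and F13a1 5.06. Tgfbi also had a mean level of 8.27 in bound RNA of cortical mature oligodendrocytes.

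The lists followed the 8 genes in bound RNA to different degrees. Of the 10 resident microglia genes 10, 9 and 8 were lower in bound than in total RNA (15.3%, 18.1% and 20.2% of all tested genes were lower). Their median was -4.39, -3.55 and -4.13, beside 0.05, 0.13 and 0.13 over all genes. Tmem119 was at least 6.55-fold, 2.60-fold and 7.49-fold lower, and no resident gene had a mean above the limit in tumour bound RNA. Resident genes entered the test mainly through total RNA, so lower levels in bound RNA were nearly fixed by the filter. Lysosomal genes, which other cells use as well, were lower in 10, 10 and 7 of 18, beside the same shares of all tested genes. Antigen presentation genes gave other counts. Of 11 tested, 2, 0 and 1 were lower in bound RNA and 0, 2 and 0 higher (16.9%, 20% and 24.1% of all tested genes were higher). In tumour bound RNA 5, 9 and 5 were higher than in cortical Olig2 bound RNA (16%, 17.7% and 12.9% of all tested genes). B2m, the light chain of class I molecules, was 10.4-fold, 13.05-fold and 7.31-fold higher there and differed from tumour total RNA by -0.42, -0.20 and -0.11 ± 0.73 (adjusted p = 0.670, 0.840 and 0.905, limma).

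Among the 5 tested Tyrobp and ITAM signalling genes 3 rose in total RNA and 3 were lower in bound RNA in each model, while 1, 2 and 0 fell in total RNA. Among the 8 of the Csf1 receptor axis, with myeloid transcription factors, 5, 4 and 3 rose and 2, 3 and 2 fell, and 3, 2 and 2 were lower in bound RNA. Over all tested genes 25%, 22.8% and 23.7% rose in total RNA and 25.5%, 25% and 26.4% fell. The falls of this list, and its counts in bound RNA beside 15.3%, 18.1% and 20.2%, thus lie near the background. Some genes of the lists were higher in bound RNA or lower in tumours. The scavenger receptor gene Cd163 was higher in bound than in total RNA, at least 2.04-fold in Pdgf tumours and 1.19-fold at the limit in Pdgf Cre tumours. Its mean levels in bound RNA were 6.67 and 5.84, the latter from 1 of 3 arrays above the limit. It was dim in total RNA of every tumour and in both RNAs of Recruited tumours. Csf2ra, a receptor chain for the growth factor GM-CSF, was 2.12-fold higher in Pdgf bound RNA and at least 2.93-fold and 1.32-fold in Pdgf Cre and Recruited. Mef2c, a transcription factor of microglia and of neurons, fell in tumour total RNA by at least 56.8-fold and by 6.20-fold and 2.96-fold. The ligands Csf1 and Il34 of the receptor Csf1r were dim in total RNA of cortex and all tumours.

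**Figure D4:**
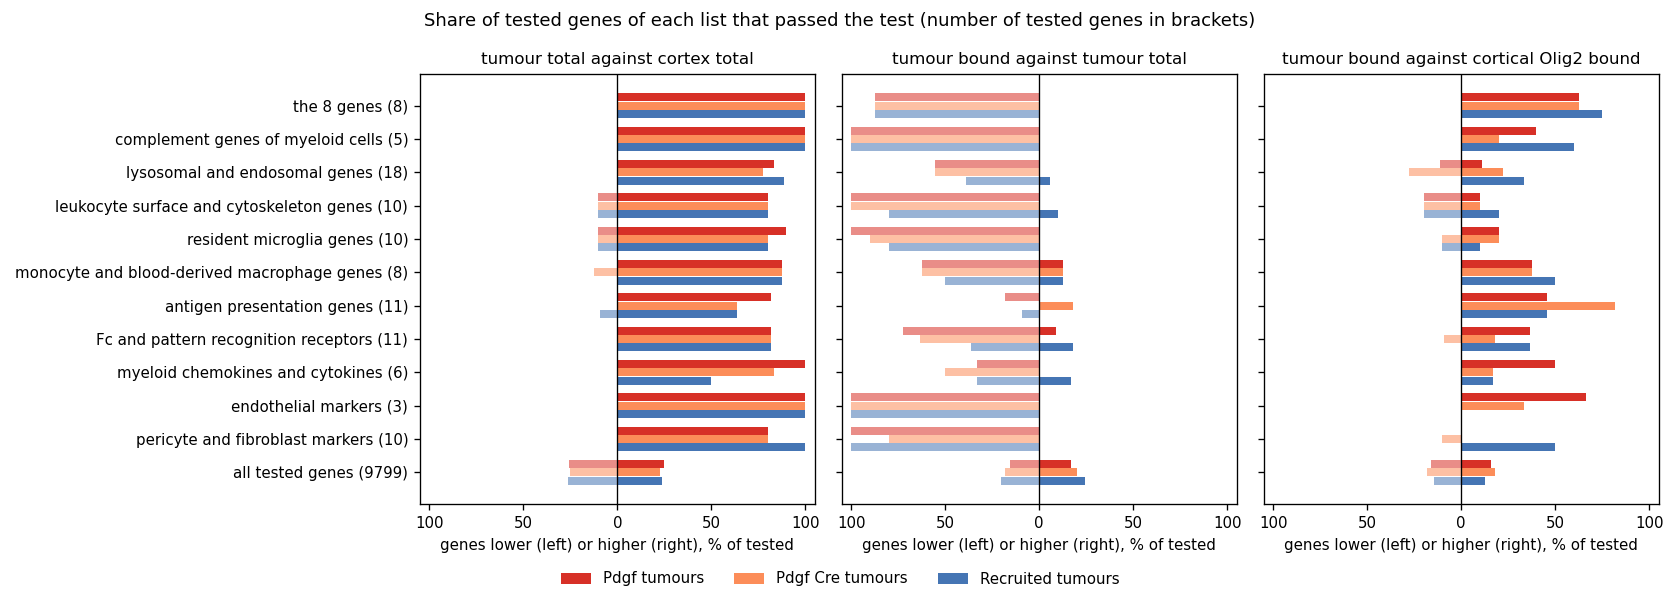
Share of the tested genes of each list (number tested in brackets) that passed as higher (right of 0) or lower (left of 0, pale) in 3 kinds of comparison, coloured by tumour model. Myeloid lists extend to the right in total RNA and mostly to the left in bound RNA, antigen presentation genes being an exception, and the bottom bars give all tested genes.

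Markers of other cells were read beside these results. Of the T, B and natural killer cell markers (13 measured), granulocyte and mast cell markers (8) and red cell markers (2), none was above the limit in enough arrays to be tested. Their highest group means were 2.84 (Gzma), 5.28 (Mmp9) and 3.49 (Alas2), all in tumour total RNA, and the summed lymphocyte markers spanned 5.78 to 6.16 over all tumour total arrays. Genes of vessel cells were read in the same comparisons. Endothelial markers rose in 3 of 3 tested in each model and fell in 3 of 3 from total to bound RNA, Cldn5 by at least 14.2-fold, 8.24-fold and 7.04-fold. Their means were dim in cortex total RNA and in every bound group, so both counts were nearly fixed by the filter. Of all tested genes 25%, 22.8% and 23.7% rose in total RNA, and 15.3%, 18.1% and 20.2% were lower in bound RNA. Pericyte and fibroblast markers rose in 8, 8 and 10 of 10 and fell in 10, 8 and 10. Their part in the results was not tested. Neuron markers, the opposite case, fell in 12, 12 and 7 of 12 in total RNA and in 10, 11 and 12 of 12 from total to bound RNA. In total RNA 9 of 9 progenitor markers rose in each model, 4, 5 and 3 of 10 astrocyte markers fell, and 7, 5 and 3 of 9 mature oligodendrocyte markers fell, with 3 of these 9 higher in Recruited tumours. In Recruited tumours both counts of falls lie near the 26.4% of all tested genes.

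The genes most like the 8 were sought over the 12 group means. The gene nearest to the mean of the 8 was Ly86 (Pearson's r = 0.98), followed by the endothelial junction gene Cldn5 (0.98), Fcer1g, the Fc receptor gamma chain (0.97), Col4a2, a basement membrane collagen (0.97), Ctla2a (0.96), Acta2 (0.96), Gas5 (0.96), Zc3h7a (0.96), Fgd5 (0.96) and Laptm5 (0.95). The group means share arrays and tumour tissue, and the values are descriptions. Among the 8, C1qa followed the mean of the others most closely (0.99) and Irf8 least (0.75), with Ptprc at 0.89, Aif1 at 0.91 and Csf1r at 0.92.

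The nearest genes of Irf8 were Ifi47 (0.97) and Oasl2 (0.96), both known as interferon-induced genes. Ifi47 had mean levels of 7.51, 8.20 and 5.32 in Pdgf, Pdgf Cre and Recruited bound RNA beside 8.46, 8.83 and 5.81 in total RNA, and 2.08 in every cortical bound group. Oasl2 had 7.27, 8.20 and 5.81 beside 7.70, 8.64 and 7.07. In Recruited tumours the mean of Ifi47 was dim in bound RNA. The neighbours of the others were Ly86 and Ctla2a for C1qa, Acta2 and Col4a2 for C1qb, Fcer1g and Cldn5 for Tyrobp, Rnase4 and the Fc receptor gene Fcgr3 for Csf1r, Tfpi2 and Pik3ap1 for Ptprc, Zc3h7a and Laptm5 for Ctss and Klhl6 and Kcnk6 for Aif1.

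The 12 group means were also put in order for each gene. Tumour total RNA of the 3 models took the first 3 places for every gene but Irf8, and neighbouring models overlapped. Cortex total RNA came next for the other 7, with arrays that overlapped Recruited total RNA for Tyrobp and Aif1. Among these 7, tumour bound RNA overlapped cortex total RNA for C1qa, C1qb, Tyrobp and Ctss. For Irf8, Pdgf Cre and Pdgf bound RNA stood between Pdgf and Recruited total RNA and overlapped both. By its mean, cortex total RNA came after all tumour groups for Irf8, but it overlapped Recruited bound RNA. Recruited bound replicates 2 and 3 (4.26 and 3.59) lay below every cortex array. The last 4 places were held by cortical bound RNA for C1qa, C1qb, Tyrobp, Ctss and Irf8.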

How the data were processed

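The submitters hybridized biotin-labelled RNA to one-colour Affymetrix arrays after 2-cycle amplification, per the labels' protocols, and deposited log2 GCRMA signals, per the submitters' processing notes (version, build and annotation not given in the sources used here). Each of the 12 groups has its own lowest value, so the authors' deposited log2 values look processed group by group, which narrows spreads within a group, and how levels compare across groups is unknown. The values were therefore quantile normalized over all 38 arrays and 16395 probe sets (limma 3.58.1, R 4.3.3). Of these, 64 were controls and 687 had no gene. Each gene had 1 probe set.

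One linear model of the 12 groups was fitted to all arrays (26 residual degrees of freedom, eBayes), giving 21 comparisons. Array number and signal over background limit the precision, and intervals are at 95%. Alternatives were the deposited values, median and spike-in scaling, other filters, an intensity trend with robust prior, array weights, only the groups compared, the replicate block and leaving out each array. Leaving out Recruited tumour 1 in both RNAs was chosen after seeing the data. The pipeline was tested on simulated data. Deviations of same-numbered bound and total arrays correlated at 0.27 to 0.63 in the 9 tumours, so the titles' numbers were taken to pair them. Arrays of unlike number were not compared. In cortex the correlations were -0.19 to 0.21, and the numbers were not taken to pair arrays.

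The 8 genes and the 19 lists were chosen with earlier results of these data known. From each list up to 4 passing genes with the largest change were named, with those nearest over group means. List genes that could not be tested, and single list genes outside this rule such as B2m, Cd163, Mertk and P2ry6, were chosen after their values were seen. Symbols come from the platform annotation, and promoter windows from RefSeq were matched for 5 genes, not for C1qa, Tyrobp and Csf1r.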

Additional observations from a re-analysis of the deposited data

Results flagged for a closer look

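In cortex total RNA, the 1 group of more than 3 arrays, an array stood apart from the other 4 for 3 of the 8 genes by Dixon's ratio of gap to range (critical value 0.71). Aif1 was highest at 4.29 on 1 array (ratio 0.882), C1qb highest at 7.76 on another (0.826) and Irf8 lowest at 4.83 on the array that was highest for Aif1 (0.767). Chance gives such a flag in about 1 in 20 groups. Aif1 and Irf8 were dim on all 5 arrays.

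The loss from total to bound RNA differed between tumours and cortical Olig2 cells for C1qa (-4.01), Ptprc (-5.83) and Aif1 (-2.52, log2), each tested as a difference of differences in limma. All 3 had dim means in both cortex groups, so the cortical loss could not be read. The fit took it as -2.86 for C1qa, -0.05 for Ptprc and -1.98 for Aif1.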

How the results depend on the processing

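No result changed sign while called. The numbers of genes called below are out of 8. Without a common scale, and with medians equalized, Recruited against Pdgf total RNA had 1 call each instead of 4, and against Pdgf Cre 1 each instead of 3, which on the deposited scale was Ptprc, higher, with all 3 lower calls lost. With only the groups compared these were 0 and 0, Recruited bound against total 3 instead of 7, against cortical Olig2 2 instead of 6, and against Pdgf and Pdgf Cre bound 0 and 0 instead of 2 and 1. Array weights gave 1 instead of 0 for Pdgf Cre against Pdgf total, and 7 instead of 3 for the tumour against cortex difference of losses, as did the replicate block (7). The block changed no other call of the 8 genes but Irf8 in Recruited tumours. In cortex, where numbers were not taken to pair arrays, it changed none of the calls. Leaving out single arrays gave 1 to 6 calls for Recruited against Pdgf and 1 to 6 against Pdgf Cre total, 3 to 5 for Pdgf Cre bound against cortical Olig2, 1 to 2 for Recruited against Pdgf Cre bound and 3 to 5 for the difference of losses, and 6 to 8 for Recruited total against cortex. Over all genes, calls for neurons against cortex went from 2765 to 4774 (deposited) and 5139 (medians equalized), for bound against total in Pdgf from 3157 to 5633 and in Pdgf Cre from 3726 to 5608 (medians equalized), and for Recruited against Pdgf total from 3383 to 2045 (only the groups compared). The deposited scale moved the median gene by 0.38 and 0.41 in Pdgf and Recruited total RNA against cortex. The causes were not tested. Dim signals limit Ptprc, Aif1 and C1qa most, and 3 arrays a group limit all comparisons.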
